A study of Mus musculus with 2 samples.

Results

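The genes described here are 6 genes of neurotrophin signalling, Bdnf, Ntf3, Ntrk2, Ntrk3, Sort1 and Shc3, chosen by symbol from the 32285 genes of the matrices. All 6 were present. They were measured by single-nucleus RNA sequencing in hippocampi of C57BL/6J mice aged 6 weeks, which had received adeno-associated virus (AAV) into the ventricles of both hemispheres at postnatal day 0. In the AAV-TAU group the vector carried human MAPT for full-length wild-type tau of the 2N4R form. In the AAV-STOP group, the control, an early stop codon in the MAPT transcript of the vector keeps it from being translated into tau. Both groups therefore carried viral human MAPT, and the promoter of the vectors is not given in the sources used here. Hippocampi of 3 mice were pooled into 1 library per group, so there is no replicate, no test was possible, and the spread between mice is unknown. The comparison asks how expression of wild-type human tau changes the transcripts of hippocampal cells, here those of neurotrophin signalling.

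Neurotrophins are secreted growth factors that bind receptor tyrosine kinases of the Trk family and the receptor p75. Brain-derived neurotrophic factor, the product of Bdnf, acts mainly through TrkB, encoded by Ntrk2, and neurotrophin-3, the product of Ntf3, mainly through TrkC, encoded by Ntrk3. Sortilin, the product of Sort1, sorts proneurotrophins within the cell and serves as a co-receptor of p75 for them, and Shc3 encodes an adaptor of the Shc family that couples tyrosine kinase receptors, Trk receptors among them, to the Ras pathway. In the hippocampus Bdnf is known for its induction by neuronal activity and for its part in synaptic plasticity, and astrocytes are known to carry mainly a truncated TrkB that lacks the kinase.

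The counts are of whole genes, so transcripts of a gene from different promoters, and truncated and full-length receptors, were summed. In GENCODE vM21 (GRCm38) Bdnf lies on chromosome 2, from 109674700 to 109727007 on the plus strand, and has 11 transcripts. Ntf3 lies on chromosome 6, from 126101412 to 126166910 on the minus strand. Ntrk2 lies on chromosome 13, from 58806569 to 59133970 on the plus strand, and Ntrk3 on chromosome 7, from 78175959 to 78738012 on the minus strand. Sort1 lies on chromosome 3, from 108284082 to 108361511 on the plus strand, and Shc3 on chromosome 13, from 51431041 to 51569419 on the minus strand. Ntrk2 and Ntrk3 each overlap 4 other annotated genes, Sort1 overlaps 2 and Bdnf overlaps 1. The gene that overlaps Bdnf lies on the opposite strand. Genes on the same strand overlap Ntrk2 (C630044B11Rik), Ntrk3 (Gm39038 and Gm44607) and Sort1 (Gm43099). This leaves the assignment of some reads of Ntrk2, Ntrk3 and Sort1 uncertain.

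RefSeq lists 7 start sites of Bdnf on GRCm38.p6, and 1 of them is shown because it is the start that carries a motif bound by CREB, the product of Creb1 in the list of Bdnf regulators below. The 250 bases before that start, chr2:109692186-109692435 on the plus strand, hold the motif TCACGTCA, a form of the cyclic AMP response element, printed here in capitals and found 38 bases before the start.
Bdnf promoter: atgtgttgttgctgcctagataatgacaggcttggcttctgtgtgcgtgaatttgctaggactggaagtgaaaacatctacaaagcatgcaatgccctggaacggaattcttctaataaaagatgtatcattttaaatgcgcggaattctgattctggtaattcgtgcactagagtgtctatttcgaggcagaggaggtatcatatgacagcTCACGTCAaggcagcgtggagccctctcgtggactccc
On either strand the motif was found in 1 of the 7 Bdnf promoters, in 0 of 2 promoters listed for Ntf3, in 0 of 1 listed for Ntrk2, and in 115 of all 32851 promoters of that table (0.350%). The count data do not show which of the 7 starts a Bdnf read came from.

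The AAV-TAU library held 19596 barcodes and 109428807 unique molecular identifiers (UMIs), and the AAV-STOP library 20265 barcodes and 130252240 UMIs. Filtering left 17893 AAV-TAU nuclei with a median of 4923 UMIs and 17831 AAV-STOP nuclei with a median of 5496 UMIs. Nuclei were clustered without the 6 genes, and clusters were called like a cell type where fixed marker genes named them. This gave 12 classes with 100 or more nuclei in both libraries, from CA2-like neurons (132 AAV-TAU and 167 AAV-STOP nuclei) to granule-like neurons (4245 and 5085). Unnamed clusters held 4421 AAV-TAU and 4079 AAV-STOP nuclei, and 1 of them, led by Cmss1 and Lars2, was almost all AAV-TAU (448 and 21 nuclei). Levels are CPM, the UMIs of a gene per 1000000 UMIs summed over a class, with exact 95% Poisson intervals that cover counting error only. The median mitochondrial share per nucleus was higher in AAV-TAU in each of the 12 classes, and genes shorter than 5 kb had a median log2 ratio above 0 in each of them.

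Bdnf, which encodes the ligand of TrkB, was highest in excitatory neurons of the dentate gyrus and CA3. Granule-like neurons had 73.5 CPM in AAV-TAU and 84.7 CPM in AAV-STOP, CA3-like neurons 60.3 and 73.6 CPM, and CA1-like neurons 57.5 and 55.7 CPM. Only the step from granule-like to CA3-like neurons lay outside the intervals in both libraries, and no other neighbours in the order of the 12 classes were apart. At the low end, inhibitory-like neurons had 14.9 CPM in AAV-TAU and 13.9 CPM in AAV-STOP, and newly formed oligodendrocyte-like nuclei 26.75 and 12.5 CPM, so the lowest class was not the same in both libraries.

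**Figure D1:**
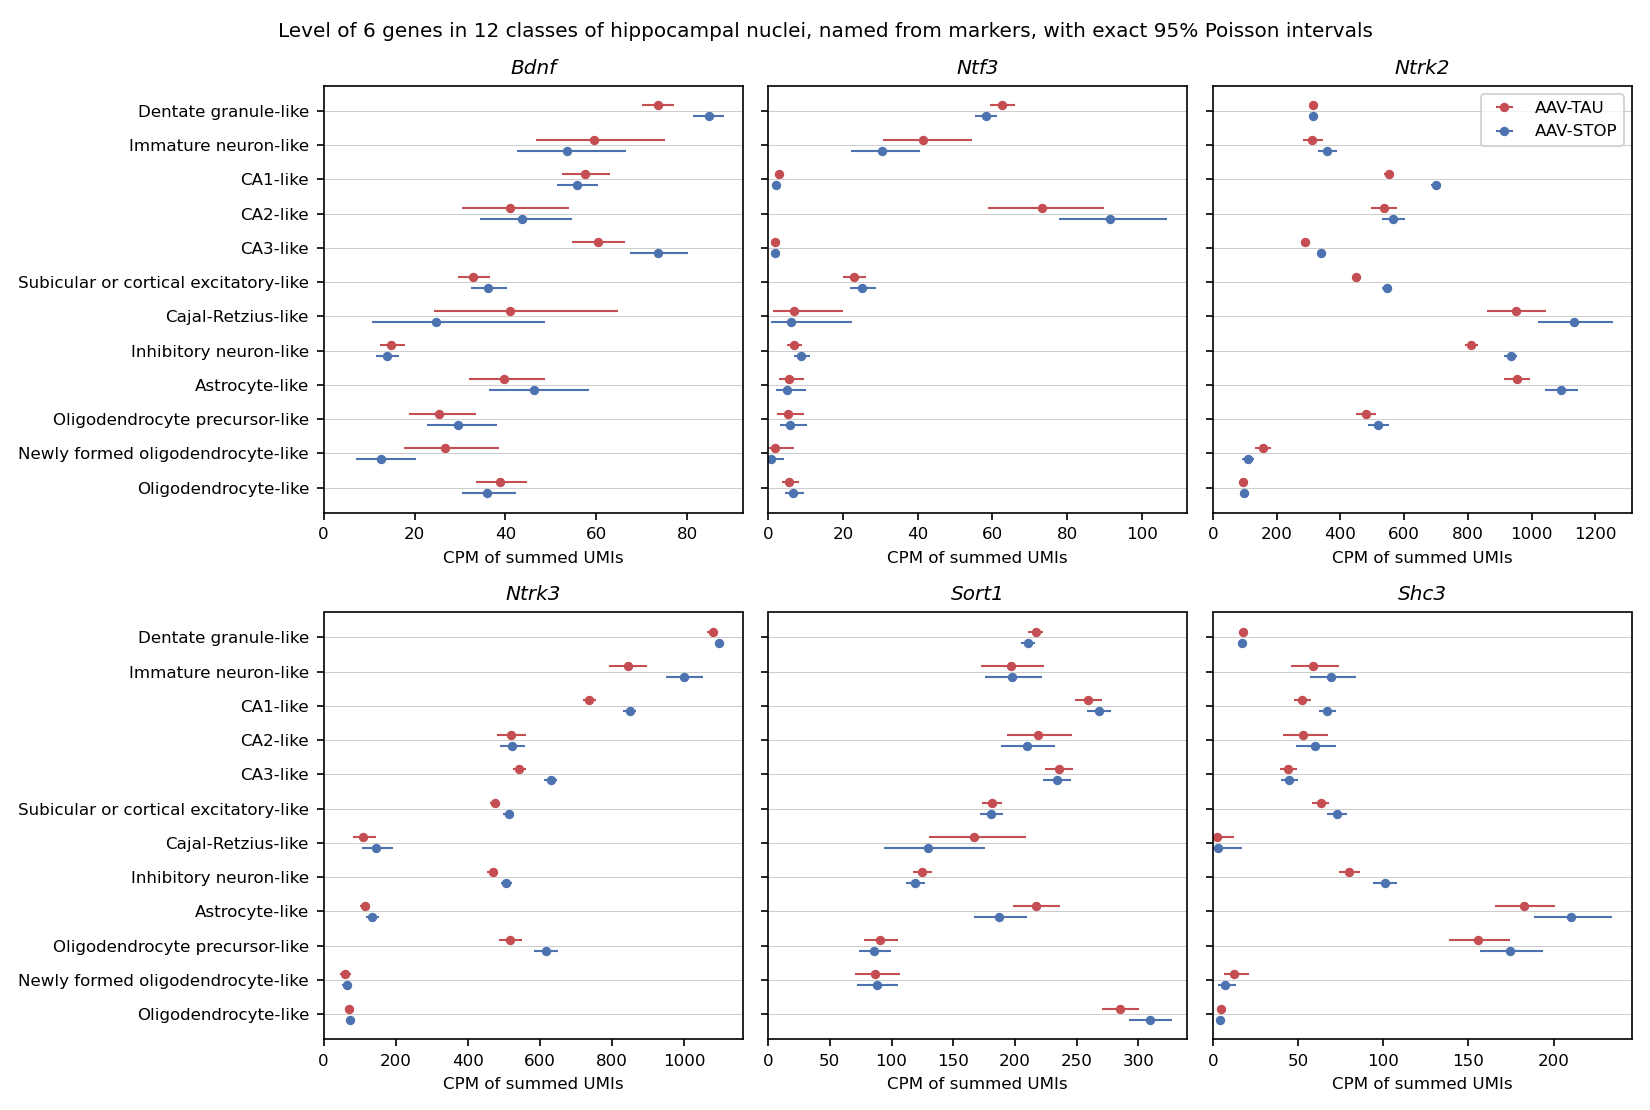
Level of each gene in CPM of summed UMIs (horizontal axes) in the 12 classes (vertical axis), with AAV-TAU in red above AAV-STOP in blue and exact 95% Poisson intervals as bars. Bdnf and Ntrk3 were highest in granule-like neurons, Ntf3 in CA2-like neurons, Ntrk2 in Cajal-Retzius-like and astrocyte-like nuclei, Sort1 in oligodendrocyte-like nuclei and Shc3 in astrocyte-like nuclei.

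A low Bdnf signal was found in nuclei of all classes. Per nucleus, Bdnf had 0.0963 UMIs in AAV-TAU and 0.0957 in AAV-STOP oligodendrocyte-like nuclei, 0.0899 and 0.0893 in inhibitory-like neurons, and 0.106 and 0.131 in astrocyte-like nuclei. An unnamed cluster of 571 AAV-TAU and 197 AAV-STOP nuclei that scored highest for the microglial markers, led by Inpp5d, Ikzf1 and F13a1, had 0.0981 and 0.127. These groups were alike within their intervals, while CA3-like neurons had 0.581 and 0.767 Bdnf UMIs per nucleus, granule-like neurons 0.392 and 0.468, and CA1-like neurons 0.405 and 0.412. Whether the Bdnf counted in glial and inhibitory classes is background or expression was not tested. In CPM, astrocyte-like nuclei (39.7 in AAV-TAU and 46.4 in AAV-STOP) were not apart from CA2-like neurons (41.0 and 43.7).

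Measures that divide by the depth of a nucleus set granule-like neurons less far apart. In CPM the unnamed cluster with the microglial score had 48.2 (36.4 to 62.6) in AAV-TAU and 52.8 (34.1 to 77.9) in AAV-STOP, which overlaps CA1-like neurons in both libraries. After each nucleus was thinned to 1500 UMIs the share was 10.1% in AAV-TAU and 11.6% in AAV-STOP granule-like neurons, against 6.66% (interval 4.75% to 9.02%) and 9.65% (5.91% to 14.7%) in the unnamed cluster. The intervals did not overlap in AAV-TAU and overlapped in AAV-STOP, where the thinned share in granule-like neurons cannot be told from that of the unnamed cluster. Without thinning these shares were 27.99% and 32.3% in granule-like neurons and 8.23% and 12.2% in that cluster, at median depths of 5138 and 5320 UMIs and of 1936 and 2254 UMIs.

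**Figure D2:**
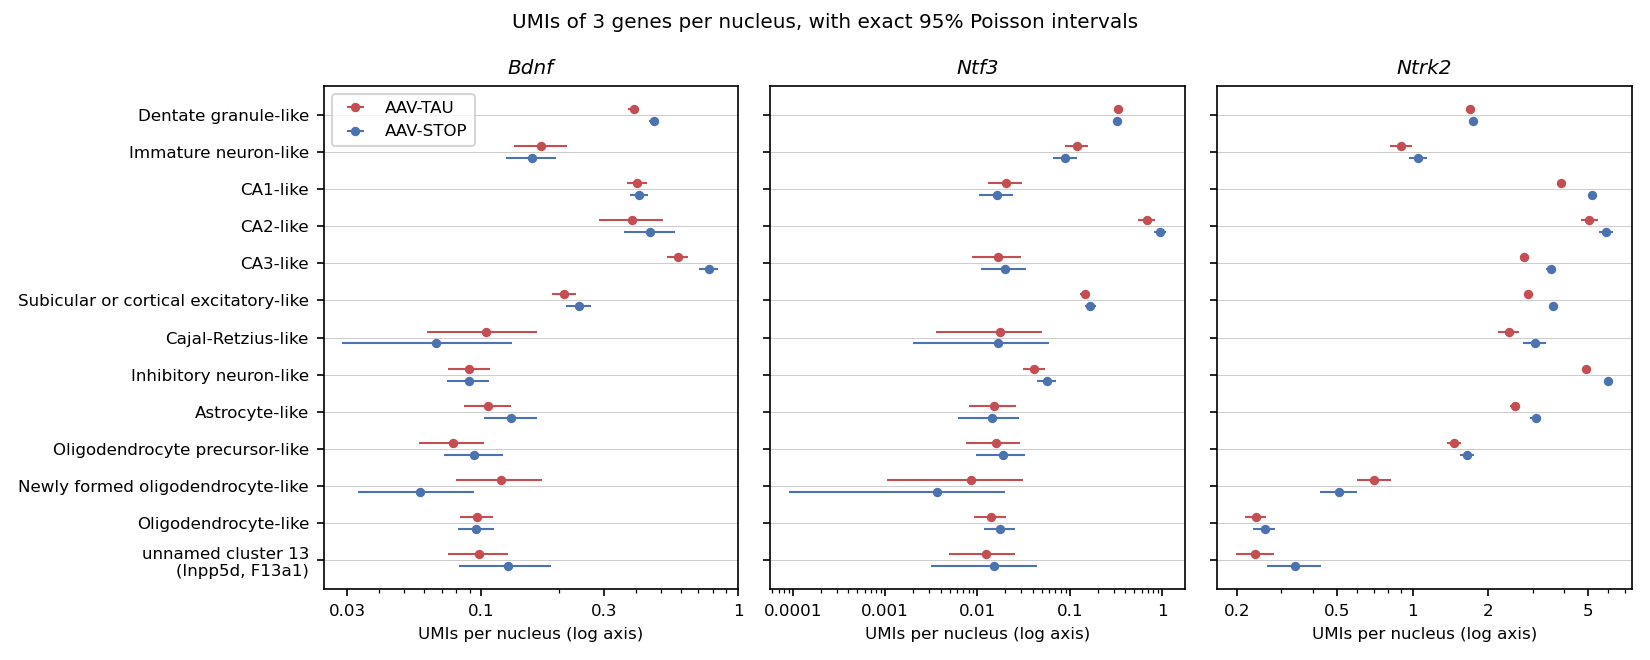
UMIs per nucleus of Bdnf, Ntf3 and Ntrk2 (horizontal log axes) in the 12 classes and the unnamed cluster that scored highest for microglial markers (vertical axis), with AAV-TAU in red above AAV-STOP in blue and exact 95% Poisson intervals. Bdnf in inhibitory-like and oligodendrocyte-like nuclei lies at the level of the unnamed cluster, while granule-like, CA1-like, CA2-like and CA3-like neurons lie above it.

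Granule-like neurons were made of 3 clusters that differed in Bdnf. The cluster led by Mylk3, Gpnmb and Arr3 had 131 CPM in AAV-TAU and 159 CPM in AAV-STOP. The other clusters had 59.6 and 63.2 CPM (led by Slc26a10, Dsp and Lct) and 57.9 and 63.9 CPM (led by Stk32b, Scn9a and Ntn5). The first cluster was thus above the other clusters in both libraries, with intervals that did not overlap. To be read, a gene needed at least 100 UMIs and at least 20 CPM in whichever library was higher, and a difference was called past 1.2-fold. In the cluster led by Mylk3 the ratio of AAV-TAU to AAV-STOP was 0.826 (0.745 to 0.915), which is past 1.2-fold lower, where 3.29% of the genes read there were. This cluster was singled out after its values were seen. Of the 12 clusters in which Bdnf was read, 3 were past 1.2-fold lower and 1 was past 1.2-fold higher, where 6.46% of all pairs of gene and cluster were lower and 15.4% higher. The higher one was an unnamed cluster led by Apela, with 31.9 CPM in AAV-TAU and 25.35 CPM in AAV-STOP, a ratio of 1.26 (0.986 to 1.61) whose interval includes 1.

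Between the libraries, Bdnf was read in 5 classes. Bdnf passed in CA3-like neurons, at 60.3 CPM in AAV-TAU and 73.6 CPM in AAV-STOP (ratio 0.820, interval 0.720 to 0.934), a class in which 2.17% of all genes read were past 1.2-fold lower. The intervals of the levels did not overlap. The call depends on the setting. Its log2 ratio of -0.29 passed the fold under 9 of 13 alternatives, and it was lost at clustering resolution 2, with a mitochondrial limit of 0.5%, with scaling by long genes, and with nuclei thinned to 1500 UMIs, where it was -0.15.

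In granule-like neurons Bdnf was lower in AAV-TAU by less than 1.2-fold, with 73.5 CPM in AAV-TAU against 84.7 CPM in AAV-STOP and a ratio of 0.868 (0.815 to 0.924). The level in AAV-TAU lay below that in AAV-STOP with no overlap of the intervals, and 1.12% of the 7070 genes read in that class had a lower ratio. In CA1-like neurons the ratio was 1.03 (0.915 to 1.17), so a difference in either direction was not detectable at this depth. Subicular or cortical excitatory-like neurons had 32.9 CPM in AAV-TAU and 36.2 CPM in AAV-STOP, a ratio of 0.910 (0.778 to 1.07). Bdnf per nucleus in oligodendrocyte-like nuclei was at the level of the unnamed cluster with the microglial score. These oligodendrocyte-like nuclei had 38.8 CPM in AAV-TAU and 36.0 CPM in AAV-STOP, a ratio of 1.08 (0.8635 to 1.35). The log2 ratio of 0.11 there was past 1.2-fold higher with marked doublets kept, at 0.34, and at clustering resolution 2, at 0.49. Under both settings the class took in the cluster led by Cmss1 and Lars2, which is unnamed in the reported setting. It held 451 AAV-TAU and 22 AAV-STOP nuclei with doublets kept, and 446 and 21 at resolution 2. The part of these nuclei in the higher ratios was not tested.

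Ntf3, which encodes the ligand of TrkC, was restricted to a few classes. CA2-like neurons had 73.2 CPM in AAV-TAU and 91.4 CPM in AAV-STOP, granule-like neurons 62.7 and 58.2 CPM, immature neuron-like nuclei 41.4 and 30.4 CPM, and subicular or cortical excitatory-like neurons 22.9 and 25.2 CPM. CA1-like neurons had only 2.87 CPM in AAV-TAU and 2.20 CPM in AAV-STOP, and CA3-like neurons 1.74 and 1.92 CPM. CA2-like neurons thus stood far above both of their neighbouring fields, with no overlap of intervals. Per nucleus, CA1-like neurons had 0.0202 Ntf3 UMIs in AAV-TAU and 0.0163 in AAV-STOP. The unnamed cluster with the microglial score had 0.0123 and 0.0152, and the intervals overlapped in both libraries.

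Among the 3 classes in which Ntf3 was read, CA2-like neurons were past 1.2-fold lower in AAV-TAU. The counts there were 91 UMIs in AAV-TAU and 159 in AAV-STOP, and the ratio of the levels was 0.801 with an interval of 0.612 to 1.04 that includes 1. In that class 9.68% of the genes read were past 1.2-fold lower, so the call is close to the background of a class with few nuclei. Granule-like neurons were in the other direction, with a ratio of 1.08 (1.001 to 1.16) that did not pass the fold.

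Ntrk2, which encodes TrkB, was read in all 12 classes. Its highest levels were in Cajal-Retzius-like neurons, with 950 CPM in AAV-TAU and 1134 CPM in AAV-STOP, and in astrocyte-like nuclei, with 954 and 1093 CPM. These classes were not apart from each other. Inhibitory-like neurons followed with 810 CPM in AAV-TAU and 934 CPM in AAV-STOP, apart from both neighbours in the order. CA1-like, CA2-like, precursor-like and subicular or cortical excitatory-like nuclei lay between 448 and 553 CPM in AAV-TAU and between 519 and 701 CPM in AAV-STOP. Granule-like neurons had 316 and 314 CPM, and CA3-like neurons 289 and 339 CPM. The lowest level was in oligodendrocyte-like nuclei, with 95.3 CPM in AAV-TAU and 96.6 CPM in AAV-STOP, or 0.237 and 0.257 UMIs per nucleus, against 0.236 and 0.340 in the unnamed cluster with the microglial score. Per nucleus the order at the top was another. Cajal-Retzius-like neurons had 2.41 Ntrk2 UMIs in AAV-TAU and 3.06 in AAV-STOP, and astrocyte-like nuclei 2.55 and 3.08. CA2-like neurons had 5.05 and 5.90, and inhibitory-like neurons 4.89 and 6.02.

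Among inhibitory-like neurons, Ntrk2 was highest in the Lamp5-like subtype, with 1126 CPM in AAV-TAU and 1306 CPM in AAV-STOP. It was lowest in the Cck-like subtype, with 583 and 598 CPM. Sst-like nuclei had 772 and 867 CPM, Vip-like nuclei 704 and 865 CPM, and inhibitory nuclei of no named subtype, most of whose clusters scored highest for the Pvalb markers, 804 and 953 CPM. The Lamp5-like subtype stood above all of the others in both libraries.

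Genes longer than 100 kb, Ntrk2 among them, had a median log2 ratio below 0 in every class, and the classes share libraries. The ratio of Ntrk2 between the libraries was below 1 in 10 of the 12 classes. In CA1-like neurons it had 4626 UMIs in AAV-TAU and 7657 in AAV-STOP, or 553 CPM against 701 CPM, a ratio of 0.789 (0.761 to 0.819). The level in AAV-TAU was below that in AAV-STOP with no overlap of intervals, and 1.13% of the genes read in CA1-like neurons were past 1.2-fold lower. Of the 6722 genes read there 0.387% had a lower ratio than Ntrk2, and of the 1626 genes longer than 100 kb among them 0.861% did. Subicular or cortical excitatory-like neurons had 448 CPM in AAV-TAU and 547 CPM in AAV-STOP, a ratio of 0.819 (0.787 to 0.854), in a class where 1.49% of genes were past 1.2-fold lower. That call was lost when the libraries were scaled by the UMIs of genes longer than 100 kb, at a log2 ratio of -0.23.

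Granule-like neurons showed no such difference, with 316 CPM of Ntrk2 in AAV-TAU and 314 CPM in AAV-STOP and a ratio of 1.00 (0.973 to 1.04). The interval of that ratio and the interval in CA1-like neurons did not overlap. No test of the difference between these classes was possible. CA3-like neurons (ratio 0.851, interval 0.802 to 0.903), inhibitory-like neurons (0.868, 0.839 to 0.897) and astrocyte-like nuclei (0.873, 0.819 to 0.930) were lower in AAV-TAU by less than 1.2-fold.

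In the other direction, newly formed oligodendrocyte-like nuclei had 157 CPM of Ntrk2 in AAV-TAU and 111 CPM in AAV-STOP. This rests on 164 and 141 UMIs, with a ratio of 1.42 (1.12 to 1.79), and 9.74% of the genes read in that class were past 1.2-fold higher. At clustering resolutions 0.5 and 2 and with thinned nuclei the gene had too few UMIs in that class to be read, at log2 ratios of 0.43, 0.28 and 0.58 that lay beyond the fold. Markers of other cells rich in Ntrk2 differed in both directions in that class. Astrocyte markers (4 of 7 higher) summed to 225 CPM in AAV-TAU and 190 CPM in AAV-STOP, Cajal-Retzius markers (3 of 6 higher) to 59.2 and 26.6 CPM, and inhibitory markers (6 of 6 higher) to 199.7 and 181 CPM. CA1 markers (2 of 6 higher) summed to 845 CPM in AAV-TAU and 935 CPM in AAV-STOP. Their part in the result was not tested.

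The same comparison was made by cluster. In the 30 clusters with 100 or more nuclei in both libraries, single-cluster classes included, Ntrk2 was read in 29, of which 24 had a ratio below 1, 9 were past 1.2-fold lower and 1 past 1.2-fold higher. Over all pairs of gene and cluster 6.46% were past 1.2-fold lower and 15.4% higher. Genes longer than 100 kb had a median log2 ratio below 0 in all of the 30 clusters but the unnamed one with the microglial score. The 9 were the CA1-like cluster, 3 subicular or cortical excitatory-like clusters and 5 unnamed clusters. The lowest ratio was in an unnamed cluster led by Otof, Sim1 and Arhgap6, with 383 CPM in AAV-TAU and 613.5 CPM in AAV-STOP, a ratio of 0.624 (0.581 to 0.670). In that cluster 13.7% of the genes read were past 1.2-fold lower and 30% past 1.2-fold higher, so many genes differed there between the libraries, and its median depth was 6729 UMIs in AAV-TAU and 8339 UMIs in AAV-STOP. Next came a subicular or cortical excitatory-like cluster led by Npsr1 and Atp10b, with 367 CPM in AAV-TAU and 518 CPM in AAV-STOP, a ratio of 0.708 (0.648 to 0.774). In the 3 granule-like clusters Ntrk2 lay between 271 and 341 CPM in AAV-TAU and between 255 and 333 CPM in AAV-STOP.

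**Figure D3:**
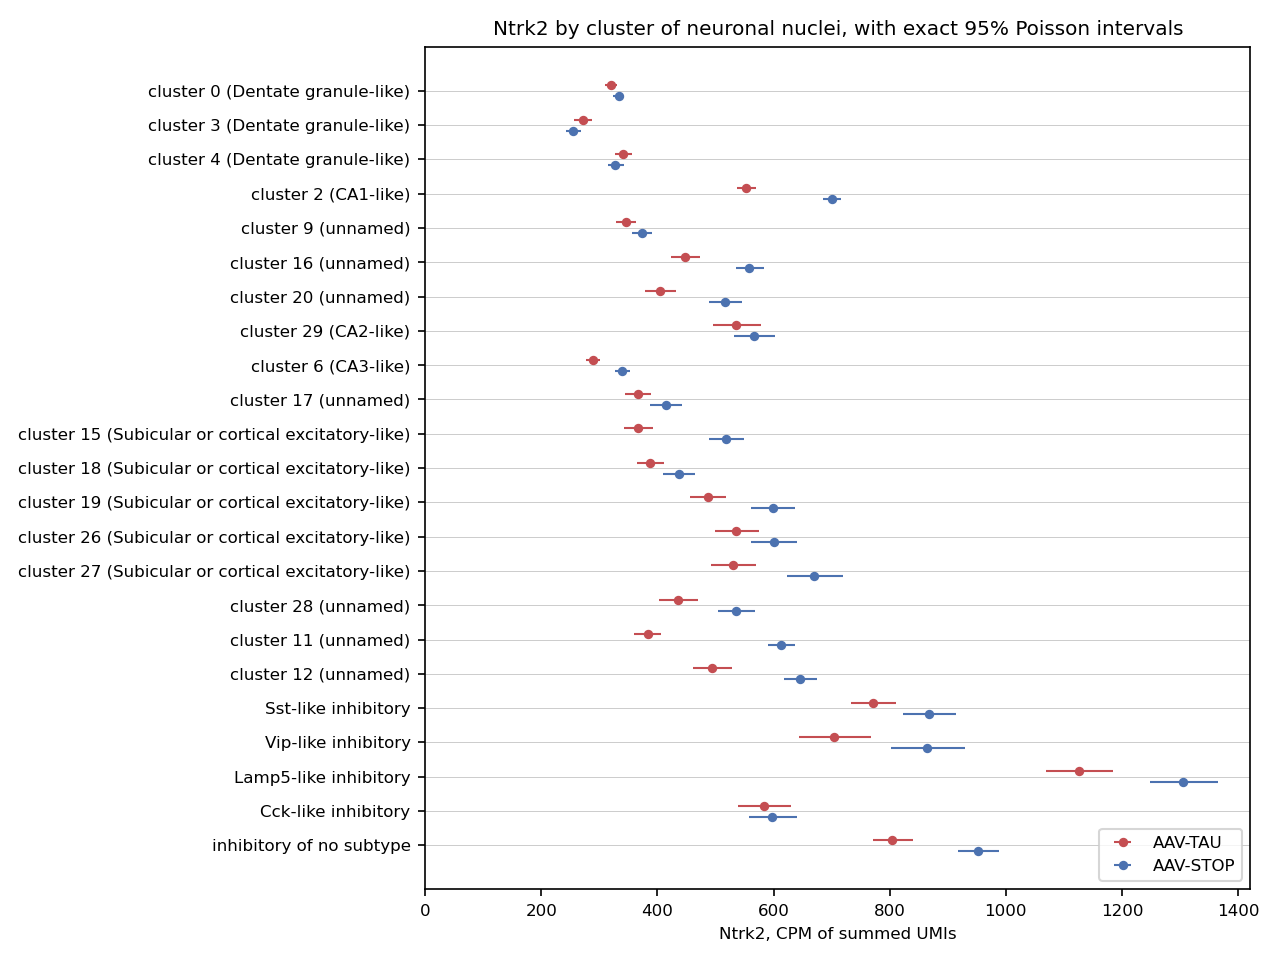
Ntrk2 in CPM of summed UMIs (horizontal axis) in clusters of neurons and in inhibitory subtypes (vertical axis), with AAV-TAU in red above AAV-STOP in blue and exact 95% Poisson intervals. The 3 granule-like clusters lie between 271 and 341 CPM in AAV-TAU and between 255 and 333 CPM in AAV-STOP, while the CA1-like cluster is at 553 CPM in AAV-TAU and 701 CPM in AAV-STOP.

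Ntrk3, which encodes TrkC, was highest in granule-like neurons, with 1079 CPM in AAV-TAU and 1098 CPM in AAV-STOP. Immature neuron-like nuclei had 843 and 1001 CPM and CA1-like neurons 737 and 849 CPM, and each of these 3 classes was apart from the next in both libraries. CA3-like, CA2-like, precursor-like, subicular or cortical excitatory-like and inhibitory-like nuclei lay between 469 and 543 CPM in AAV-TAU and between 506 and 630 CPM in AAV-STOP. Astrocyte-like nuclei had 114 and 135 CPM, and oligodendrocyte-like nuclei 70.7 and 73.2 CPM. Precursor-like nuclei, with 517.5 CPM in AAV-TAU and 616 CPM in AAV-STOP, thus stood above oligodendrocyte-like nuclei with no overlap of intervals.

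Genes longer than 100 kb, Ntrk3 among them, had a median log2 ratio below 0 in every class, and the classes share libraries. The ratio of Ntrk3 was below 1 in all 10 classes in which it was read, and it passed 1.2-fold in 0 of them. Over all pairs of gene and class read, 4.62% were past 1.2-fold lower and 14.1% higher. The lowest Ntrk3 ratio was in precursor-like nuclei (0.840, interval 0.772 to 0.914), and immature neuron-like nuclei were close, with 0.843 (0.778 to 0.913). Intervals lay below 1 in 7 of the 10 classes. When the libraries were scaled by the UMIs of genes longer than 100 kb, 7 of the 10 ratios were below 1, and with scaling by the median of ratios 9 were. Among inhibitory subtypes, Ntrk3 in Lamp5-like nuclei was 219 CPM in AAV-TAU and 284 CPM in AAV-STOP, past 1.2-fold lower, where 7.43% of the genes read were, and Cck-like nuclei had 332 and 287 CPM. The unnamed cluster with the microglial score had 79.2 CPM in AAV-TAU and 169 CPM in AAV-STOP on 92 and 80 UMIs, too few to be read.

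Sort1, which encodes sortilin, was highest in oligodendrocyte-like nuclei, with 285 CPM in AAV-TAU and 309 CPM in AAV-STOP, which were not apart from CA1-like neurons with 259 and 268 CPM. The other excitatory classes lay between 181 and 235 CPM in AAV-TAU and between 181 and 234 CPM in AAV-STOP. Inhibitory-like neurons had 125 and 119 CPM, and precursor-like nuclei 90.6 and 85.6 CPM. Newly formed oligodendrocyte-like nuclei had 87.0 CPM in AAV-TAU and 87.8 CPM in AAV-STOP, far below oligodendrocyte-like nuclei in both libraries. The unnamed cluster with the microglial score had 275.5 CPM in AAV-TAU and 262 CPM in AAV-STOP, with intervals of 246 to 307 and 218 to 312 that overlap those of oligodendrocyte-like nuclei (270 to 301 and 292 to 327).

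Over all pairs of gene and class read, 14.1% were past 1.2-fold higher and 4.62% lower. Sort1 passed 1.2-fold in 0 of 11 classes read, with 7 ratios above 1 and 4 below. The narrowest interval was in granule-like neurons, where the ratio was 1.03 (0.992 to 1.07). In oligodendrocyte-like nuclei it was 0.923 (0.854 to 0.997) and in astrocyte-like nuclei 1.16 (1.00 to 1.34). Between these libraries a difference of Sort1 in granule-like neurons is thus limited to less than 1.2-fold in either direction, as far as counting error goes. Among inhibitory groups, Sort1 passed the fold in Vip-like nuclei, with 149.7 CPM in AAV-TAU and 123 CPM in AAV-STOP, a ratio of 1.22 (0.922 to 1.61) whose interval includes 1. Of all pairs of gene and inhibitory group 12.1% were past 1.2-fold higher.

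Shc3, the adaptor, was highest in astrocyte-like nuclei, with 182 CPM in AAV-TAU and 210 CPM in AAV-STOP, and in precursor-like nuclei, with 156 and 175 CPM. Inhibitory-like neurons came next with 79.9 and 101 CPM, apart from both neighbours. CA1-like, CA2-like, CA3-like, immature and subicular or cortical excitatory-like neurons lay between 44.2 and 63.3 CPM in AAV-TAU and between 44.6 and 72.6 CPM in AAV-STOP. Granule-like neurons had 17.9 CPM in AAV-TAU and 17.1 CPM in AAV-STOP, lower than each of these classes. In oligodendrocyte-like nuclei it was 4.59 and 4.19 CPM, and Cajal-Retzius-like neurons, which were high in Ntrk2, had 1 Shc3 UMI in each library.

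Genes longer than 100 kb, Shc3 among them, had a median log2 ratio below 0 in every class, and the classes share libraries. The ratio of Shc3 was below 1 in all 8 classes read, also with scaling by the median of ratios. With scaling by the UMIs of genes longer than 100 kb it was below 1 in 7. In CA1-like neurons it had 439 UMIs in AAV-TAU and 734 in AAV-STOP, or 52.5 CPM against 67.2 CPM, a ratio of 0.782 (0.693 to 0.881). Inhibitory-like neurons had 79.9 CPM in AAV-TAU and 101 CPM in AAV-STOP, a ratio of 0.793 (0.714 to 0.881), in a class where 1.97% of the genes read were past 1.2-fold lower. In both classes the AAV-TAU level lay below the AAV-STOP level with no overlap of intervals. By cluster the picture was mixed. Shc3 was read in 21 of the 30 clusters with 100 or more nuclei in both libraries, of which 18 had a ratio below 1, 6 were past 1.2-fold lower and 2 past 1.2-fold higher. Over all pairs of gene and cluster 6.46% were lower and 15.4% higher. The 2 higher were the granule-like cluster led by Stk32b, with 27.8 CPM in AAV-TAU and 20.3 CPM in AAV-STOP (ratio 1.37, interval 1.09 to 1.73), and an unnamed cluster led by Vgll3, with 65.3 and 46.9 CPM (1.39, 1.085 to 1.80). Of the 5 inhibitory groups, 4 were past 1.2-fold lower in Shc3, where 7.54% of all pairs of gene and inhibitory group were. The lowest ratio was in Cck-like nuclei, with 61.2 CPM in AAV-TAU and 93.5 CPM in AAV-STOP. Ntrk2 in those Cck-like nuclei was 583 and 598 CPM, a ratio with an interval of 0.878 to 1.08.

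**Figure D4:**
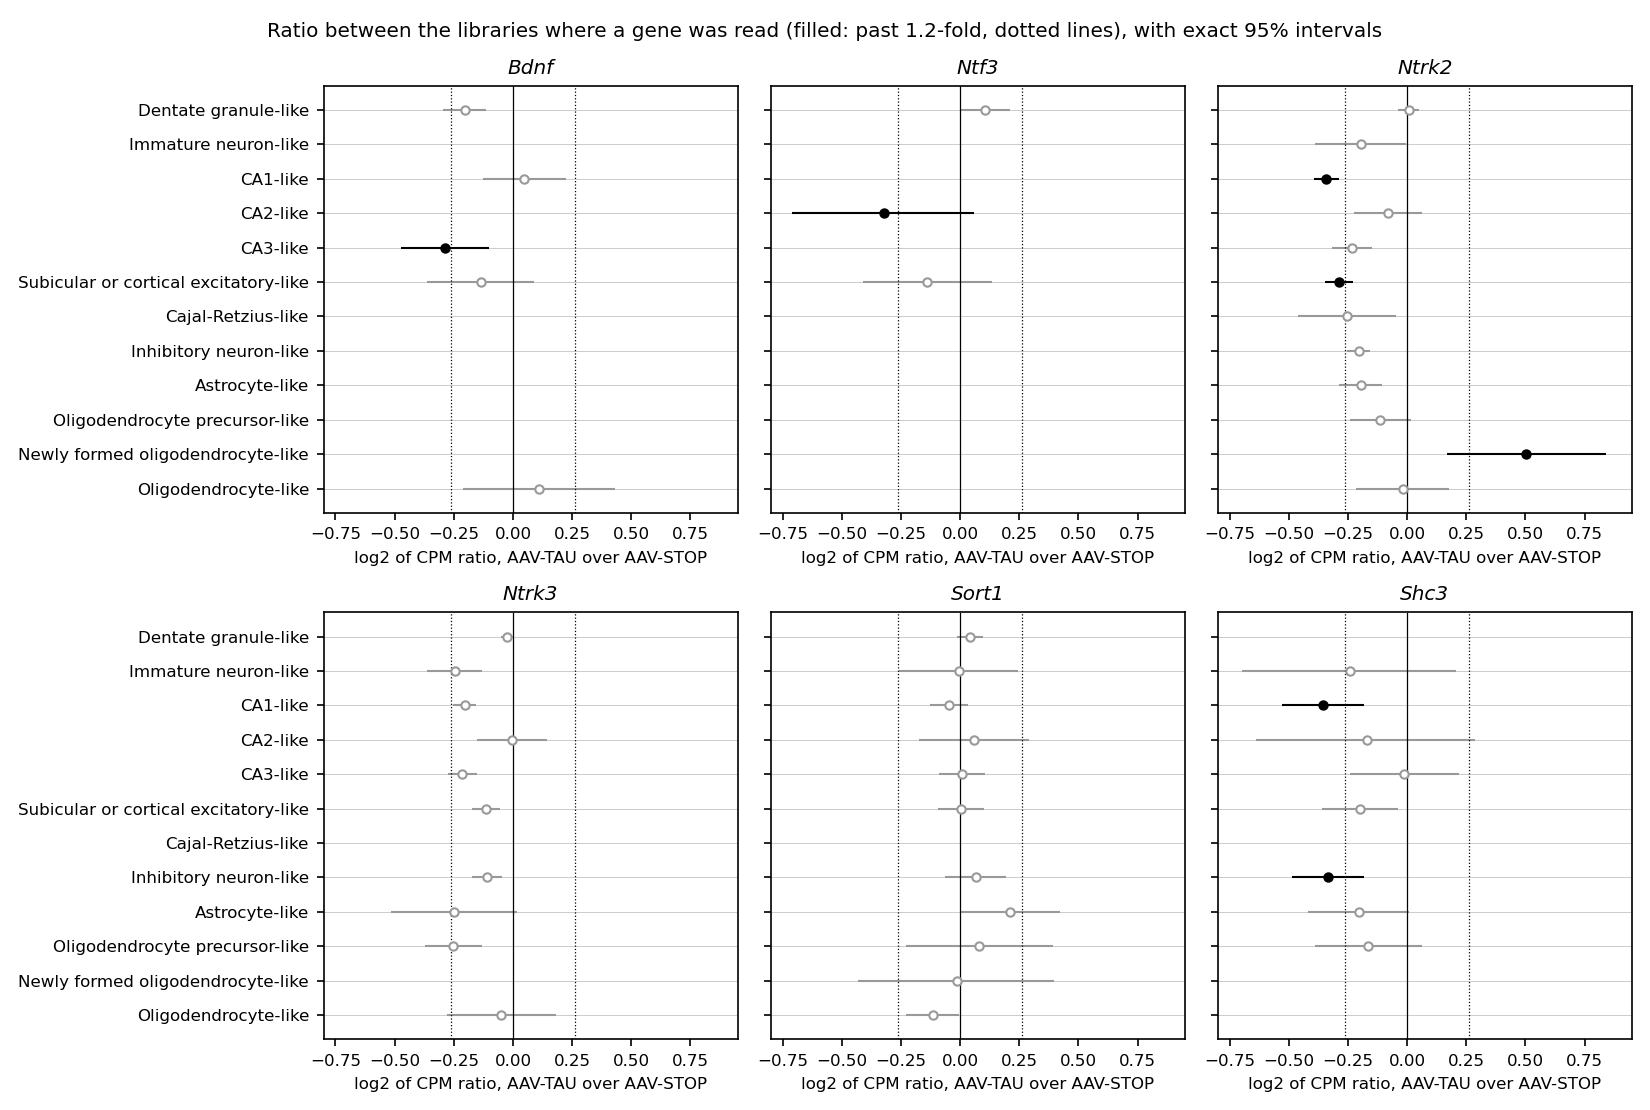
Log2 ratio of CPM, AAV-TAU over AAV-STOP (horizontal axes), in each class where a gene was read (vertical axis), with exact 95% intervals for counting error. Filled points are past 1.2-fold (dotted lines): Ntrk2 in CA1-like and subicular or cortical excitatory-like neurons, Shc3 in CA1-like and inhibitory-like neurons, Bdnf in CA3-like and Ntf3 in CA2-like neurons were lower in AAV-TAU, and Ntrk2 in newly formed oligodendrocyte-like nuclei was higher.

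Of the 72 pairs of gene and class, 49 were read, 6 of them were past 1.2-fold lower in AAV-TAU (12.2%) and 1 past 1.2-fold higher (2.04%). Over all genes 4.62% of the pairs of gene and class read were past 1.2-fold lower and 14.1% higher. The pairs share libraries and the 3 longest of the 6 genes, Ntrk2, Ntrk3 and Shc3, are longer than 100 kb. As a group, genes of that length had a median log2 ratio below 0 in each of the 12 classes. In CA1-like neurons this median was -0.02, against -0.34 for Ntrk2 and -0.36 for Shc3. In immature neuron-like nuclei it was -0.08, against -0.20 for Ntrk2, -0.25 for Ntrk3 and -0.24 for Shc3. In granule-like neurons it was -0.03, against 0.006 for Ntrk2 and -0.03 for Ntrk3. The part of gene length in these ratios was not tested.

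Across the 12 classes the gene most like Bdnf in AAV-STOP was Chn1, by Pearson's r of log2(CPM + 1), with r = 0.846 in AAV-TAU and 0.914 in AAV-STOP. Neurod2, a transcription factor of excitatory neurons, was the third, with 0.814 and 0.871. For Ntrk3 it was Lrrc7, which encodes a postsynaptic density protein, with 0.968 and 0.959, and for Sort1 it was Fam171a1, with 0.833 and 0.823. For Ntf3 it was the activin receptor gene Acvr2a, with 0.848 and 0.872. For Ntrk2 it was Gm47423, which overlaps Ntrk2 on the other strand, with 0.732 and 0.9496, and for Shc3 the uncharacterised 4930570B17Rik, with 0.807 and 0.946, then Enah, with 0.856 and 0.941. These are the highest of 10560 genes over 12 points that share libraries, so they describe the order of classes and no more. Among the 6 genes the closest pair was Bdnf and Sort1, with r = 0.699 in AAV-TAU and 0.736 in AAV-STOP.

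The ligand gene Ntf5 was read in no class. Of 7 further receptor genes, only the sortilin relatives Sorcs1, Sorcs2, Sorcs3 and Sorl1 were read in any class. Sorcs1 in inhibitory-like neurons was past 1.2-fold lower, with 205 CPM in AAV-TAU and 247 CPM in AAV-STOP. Sorcs3 in oligodendrocyte-like nuclei was also lower, with 51.7 and 64.8 CPM, in a class where 6.95% of the genes read were. Sorcs2 in CA1-like neurons was past 1.2-fold higher, with 36.0 CPM in AAV-TAU and 28.9 CPM in AAV-STOP, where 13% of the genes read were.

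Of 23 receptor adaptors other than Shc3, 12 were read in CA1-like neurons, with 0 past 1.2-fold in either direction. Their median log2 ratio was 0.01, beside 0.05 over all genes read in that class. Of all genes read there 13% were past 1.2-fold higher and 1.13% lower. In inhibitory-like neurons 14 of the adaptors were read. Shc2 was past 1.2-fold higher, with 23.8 CPM in AAV-TAU and 19.8 CPM in AAV-STOP, where 12.8% of the genes read were. The interval of its ratio, 0.970 to 1.50, includes 1. Dok5 was past 1.2-fold lower, with 37.6 and 45.4 CPM, where 1.97% of the genes read were. In astrocyte-like nuclei 3 of 13 read were past 1.2-fold lower, namely Gab1, Sos1 and Rapgef1, in a class where 9.39% were lower. The intervals of the ratios of Sos1 (0.642 to 1.02) and Rapgef1 (0.631 to 1.08) include 1. Gab1, which encodes a docking protein, had 103 CPM in AAV-TAU and 134 CPM in AAV-STOP.

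Genes of the MAP kinase and PI3 kinase arms were mostly within 1.2-fold. Hras, which encodes a Ras protein, was past 1.2-fold higher in granule-like neurons, with 22.7 CPM in AAV-TAU and 17.99 CPM in AAV-STOP, in a class where 10.3% of genes were higher. It was also higher in CA1-like neurons, with 20.6 and 15.3 CPM, in inhibitory-like neurons, with 24.3 and 16.1 CPM, and in oligodendrocyte-like nuclei, with 48.8 and 24.2 CPM. Of all genes read in these classes, 13%, 12.8% and 21.9% were past 1.2-fold higher. In granule-like neurons 3 of 18 genes read were higher and 0 lower, with a median log2 ratio of 0.05 beside 0.06 over all genes read. In astrocyte-like nuclei 1 of 12 was higher and 4 were lower, where 23.2% of all genes read were higher and 9.39% lower.

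Genes of p75 signalling were mostly above 1 in ratio. In CA1-like neurons 4 of 7 genes read, of 10 in the list, were past 1.2-fold higher, where 13% of all genes read were, with a median log2 ratio of 0.27 beside 0.05 over all genes read. Bex3, also known as NADE, which binds p75, had 29.9 CPM in AAV-TAU and 22.3 CPM in AAV-STOP there. In oligodendrocyte-like nuclei 6 of 7 read were higher, in a class where 21.9% of the genes read were, and Bex3 had 71.1 and 39.7 CPM. Lingo1, which encodes a partner of the Nogo receptor complex, had 56.7 CPM in AAV-TAU and 39.2 CPM in AAV-STOP in those nuclei. The counts higher were 1 of 7 in granule-like, 2 of 7 in CA3-like and 2 of 6 in inhibitory-like neurons. Of all genes read there, 10.3%, 12.3% and 12.8% were higher. In subicular or cortical excitatory-like neurons 4 of 7 were, where 12% of all genes read were. In precursor-like and astrocyte-like nuclei 2 of 5 and 1 of 3 were, beside 16.7% and 23.2%. In immature neuron-like nuclei 0 of 3 were, beside 12.5%. Ngfr, the gene of p75 itself, was read in no class. The shortest genes were higher in AAV-TAU as a whole, with a median log2 ratio of 0.35 for genes under 5 kb in CA1-like neurons.

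Of genes for processing and release of proneurotrophins, CA3-like neurons had 3 of 8 read past 1.2-fold higher and 1 lower. Of all genes read in that class 12.3% were higher and 2.17% lower. Pcsk1, a prohormone convertase, had 26.5 CPM in AAV-TAU and 21.0 CPM in AAV-STOP, Plat, the tissue plasminogen activator that helps to convert proBDNF, 36.8 and 29.5 CPM, and Hap1, a partner of huntingtin in vesicle transport, 50.9 and 40.4 CPM. In granule-like and CA1-like neurons 0 of 7 passed in either direction. Of all genes read, 10.3% were past 1.2-fold higher and 0.41% lower in granule-like neurons, and 13% and 1.13% in CA1-like neurons. In astrocyte-like nuclei Pcsk6 had 144 CPM in AAV-TAU and 100.4 CPM in AAV-STOP, and Cadps2, which promotes release from dense core vesicles, 50.2 and 31.8 CPM, in a class where 23.2% of genes were higher.

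Of 13 regulators of Bdnf transcription 9 were read in granule-like neurons, and 0 of them passed 1.2-fold. Of all genes read there 10.3% were past 1.2-fold higher and 0.41% lower. Creb1, which encodes the factor that binds the element printed above, had 70.5 CPM in AAV-TAU and 64.04 CPM in AAV-STOP in those neurons. In CA3-like neurons Mef2c was past 1.2-fold higher, with 48.3 and 35.6 CPM, where 12.3% of all genes read were. The other 6 regulators read there were not past the fold.

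Of 19 genes known to be induced by BDNF, 4 were read in granule-like neurons, all with a ratio below 1. Of all genes read there, 34.4% had a ratio below that of Ntrk2, whose log2 ratio was 0.006. The median log2 ratio of the 4 was -0.18, beside 0.06 over all genes read. Spred1, which encodes an inhibitor of the Ras pathway, was past 1.2-fold lower. It had 60.8 CPM in AAV-TAU and 79.0 CPM in AAV-STOP, in a class where 0.41% of the genes read were lower. In CA1-like neurons 4 of 9 read were past 1.2-fold higher, where 13% of all genes read were. The activity-induced Egr1 had 43.7 CPM in AAV-TAU and 24.1 CPM in AAV-STOP there, Arc had 22.7 and 12.9 CPM, and Junb had 20.8 and 12.6 CPM. Their log2 ratios were 0.86, 0.82 and 0.72, beside a median of 0.35 over genes under 5 kb in that class. The part of gene length in these ratios was not tested. In oligodendrocyte-like nuclei 2 of 6 read were past 1.2-fold higher and 0 lower, where 21.9% of all genes read were higher and 6.95% lower. Egr1 was 1 of them, with 34.0 CPM in AAV-TAU and 17.99 CPM in AAV-STOP. In inhibitory-like, astrocyte-like and precursor-like nuclei 1 gene of 6, 4 and 4 read was past 1.2-fold lower and 0 higher. Of all genes read in these classes, 1.97%, 9.39% and 8.19% were lower and 12.8%, 23.2% and 16.7% higher. In CA3-like neurons 0 of 4 read passed the fold, where 12.3% of all genes read were past it higher and 2.17% lower.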

How the data were processed

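The files deposited by the authors give raw UMI counts for each gene and barcode, from 3' libraries of 10x Genomics. Per the file headers they were made with Cell Ranger 8.0.1, while the submitters' processing notes name Cell Ranger 4.0, Seurat 4.4.0 and the mm10 genome. Human MAPT is not among the genes, so the vector of each library could not be checked. The 2 libraries share 116 barcode sequences, of which 107 AAV-TAU and 98 AAV-STOP barcodes were kept.

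Barcodes were kept from 500 UMIs and 300 genes upwards, up to a mitochondrial share of 5%. Doublets were marked by the share of simulated doublets among each barcode's neighbours (expected rate 0.15), after the method of scrublet, and left out: 1701 AAV-TAU (8.68%) and 2430 AAV-STOP (12.0%) barcodes. Clustering used 3000 variable genes without the 6 genes, 30 principal components, 15 neighbours and leidenalg 0.10.2 at resolution 1, in Python 3.11.15 with scipy 1.17.1. A cluster was named by its highest mean log2 marker level, of at least 1.6 and 0.3 above the next type, with 3 or more markers raised. It stayed unnamed where another type's markers outnumbered its own among its 10 leading genes (or tied with them where the lead was under 0.5), in glia where Rbfox3 passed 50% of its median in neuronal clusters, and in inhibitory clusters where Slc17a6 and Slc17a7 passed 50% of Gad1 and Gad2. These thresholds, and the way variable genes were chosen, were set after seeing the data, the latter because a first choice left CA1 without a name. Classes rebuilt in this way may differ from the authors'.

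UMIs were summed over a class and given as CPM. With 1 library per group there is no test, and intervals (95% Poisson for levels, exact for ratios and shares) cover counting error only. Simulated counts were used to check the calling of ratios. They held counting error only and set changes larger than 1.2-fold. They therefore say nothing about the spread between mice or libraries, or about changes near 1.2-fold. Of the pathway lists up to 3 genes per list and main class, with the largest absolute log2 ratio among genes read, were eligible to be named, and not all are printed. The members, lists and markers were chosen with earlier results of these data known. Alternatives changed doublets, depth, resolution, variable genes, scaling, thinning, weighting, the mitochondrial limit, the filter and the pseudocount. Promoter sequences are RefSeq's on GRCm38.p6. Of 32285 gene identifiers 32158 were found in GENCODE vM21.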

Additional observations from a re-analysis of the deposited data

Results flagged for a closer look

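Ntrk2 was past 1.2-fold in opposite directions in different classes. The log2 ratio of AAV-TAU over AAV-STOP was 0.50 in newly formed oligodendrocyte-like nuclei, against -0.34 in CA1-like neurons and -0.29 in subicular or cortical excitatory-like neurons. With 1 library per group the difference between these classes was not tested.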

How the results depend on the processing

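No paired analysis was possible because each group has 1 library, and no replicate could be left out. The 7 pairs past 1.2-fold kept their direction under every alternative that gave a value. The count of pairs past 1.2-fold higher, 1 as reported, was 2 with marked doublets kept, 0 at clustering resolution 0.5, 3 at resolution 2, 3 with nuclei thinned to 1500 UMIs, 8 with no filter on low counts, and 2 with scaling by the UMIs of genes longer than 100 kb. The count past 1.2-fold lower, 6 as reported, was 10 with scaling by the median of ratios and between 4 and 9 otherwise. Bdnf and Ntrk2 in oligodendrocyte-like nuclei and Ntrk2 and Ntrk3 in Cajal-Retzius-like neurons were newly past the fold at resolution 2. Each of these classes there took in a cluster that was almost all AAV-TAU. These clusters held 446 AAV-TAU and 21 AAV-STOP nuclei (oligodendrocyte-like) and 107 and 3 nuclei (Cajal-Retzius-like). These pairs thus compare classes of unlike make-up. CA1-like neurons formed no named class with doublets kept or at resolution 0.5, so their values are missing there. Ntrk2 in CA1-like neurons ranged from -0.40 to -0.28 and Shc3 from -0.41 to -0.27 on the log2 scale over 11 alternatives, all past 1.2-fold. Shc3 in inhibitory-like neurons passed under 13 of 13, and Ntrk2 in newly formed oligodendrocyte-like nuclei under 10 of 13, with too few UMIs to be read under the other 3. Ntf3 in CA2-like neurons had a log2 ratio of -0.60 with thinned nuclei, below the count needed to be read. Scaling by long genes and the wider CA1 class, with 3 unnamed clusters added, were chosen after seeing the data. Few nuclei limit the CA2-like, Cajal-Retzius-like and newly formed oligodendrocyte-like classes, with 132, 173 and 234 in AAV-TAU and 167, 120 and 277 in AAV-STOP.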
